A study of Homo sapiens with 12 samples.

Results

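ATF3 (activating transcription factor 3, ENSG00000162772.18) was examined as an RNA bound by dSpCas9 in human HEK 293T cells. Its peaks were taken as all plus-strand peaks of the 4 deposited peak lists that overlapped the annotated gene, chr1:212565334-212620777 (hg38), and there were 59 of them among 18128 peaks in all. V5 over size-matched input held 15 of 6605 peaks, V5 over empty vector IP 15 of 3005, FLAG over size-matched input 15 of 6554 and FLAG over empty vector IP 14 of 1964. No list held a minus-strand peak on this stretch.

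ATF3 encodes a transcription factor of the basic leucine zipper (bZIP) family, which binds DNA as a homodimer or as a dimer with other bZIP proteins. It is an immediate early gene: its mRNA is scarce in resting cells and short-lived, and rises after DNA damage, amino acid shortage, endoplasmic reticulum stress and other insults, through p53 and through the integrated stress response among other routes. HEK 293T cells derive from human embryonic kidney and express the large T antigen of SV40, a viral protein that binds p53.

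Enhanced CLIP (eCLIP) cross-links proteins to RNA with ultraviolet light, immunoprecipitates (IP) 1 protein and sequences the RNA fragments that come with it. The protein was a catalytically dead Streptococcus pyogenes Cas9, which binds DNA with a guide RNA but does not cut it, expressed in Lenti-X 293T cells by transfection. According to the study it carried no nuclear localization signal and was found mainly in the cytoplasm. The 12 libraries fell into 6 groups of 2 biological replicates: V5-dSpCas9 V5 IP, its V5-dSpCas9 size-matched input, Empty vector V5 IP, and the same 3 groups for 3xFLAG-dSpCas9 with anti-FLAG. All cells received UV at 400 mJ/cm2 on 2 occasions according to the labels, and membranes were cut upward of 115 kDa. The size-matched input is RNA from the same lysate and size range without IP, and the empty vector IP is the same antibody on cells without tagged Cas9. No guide RNA was named in the labels of any group.

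Each list gave 1 log2 enrichment and 1 −log10 p per peak for both replicates together, so no value below has an error over replicates, and the read depth behind it is unknown. The enrichment compares reads in the IP with reads in the control over the peak. The lowest value in any list was 3.0, so a stretch without a peak had no enrichment that passed the authors' cut, which is not the same as no binding. V5 lists and FLAG lists share no library, whereas the 2 lists of 1 antibody share their IP libraries. Changes in ATF3 mRNA abundance on transfection are not in these lists.

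The canonical transcript, ATF3-202 (ENST00000341491.9), has 4 exons and 1940 nt: a 5′ UTR of 174 nt, a CDS of 546 nt with 181 codons before the stop, and a 3′ UTR of 1220 nt. All 59 peaks lay on its exons. Exon 1, chr1:212608761-212608930, held 5 peaks over the 4 lists, and exon 2, chr1:212615018-212615261, held 10. Exon 3, chr1:212618127-212618234, is 108 nt long and held 0, while exon 4, chr1:212619358-212620775, which carries the end of the CDS and the whole 3′ UTR, held 44. The peaks therefore lay on parts of the spliced mRNA, with none in an intron. The first exon of the transcripts that start 43427 nt upstream (chr1:212565334-212565483) held 0 peaks, and so did the alternative last exon of ATF3-201 at chr1:212619046-212619266, which encodes another C terminus.

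Pooled over the 4 lists, the peaks merged into 7 bound regions with 1029 nt, 1 in the 5′ UTR, 3 in the CDS and 3 in the 3′ UTR. Of these, 5 held a peak in all 4 lists, 1 lacked a peak in FLAG over empty vector IP, and 1 was seen by V5 alone. Peaks covered 925 nt of the mRNA (47.7%) in V5 over size-matched input, 909 nt (46.9%) in V5 over empty vector IP, 786 nt (40.5%) in FLAG over size-matched input and 741 nt (38.2%) in FLAG over empty vector IP. At single nucleotides, 640 of the 1940 nt were under a peak in all 4 lists. Of these, 498 lay in the 3′ UTR, 142 in the CDS and 0 in the 5′ UTR.

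**Figure D1:**
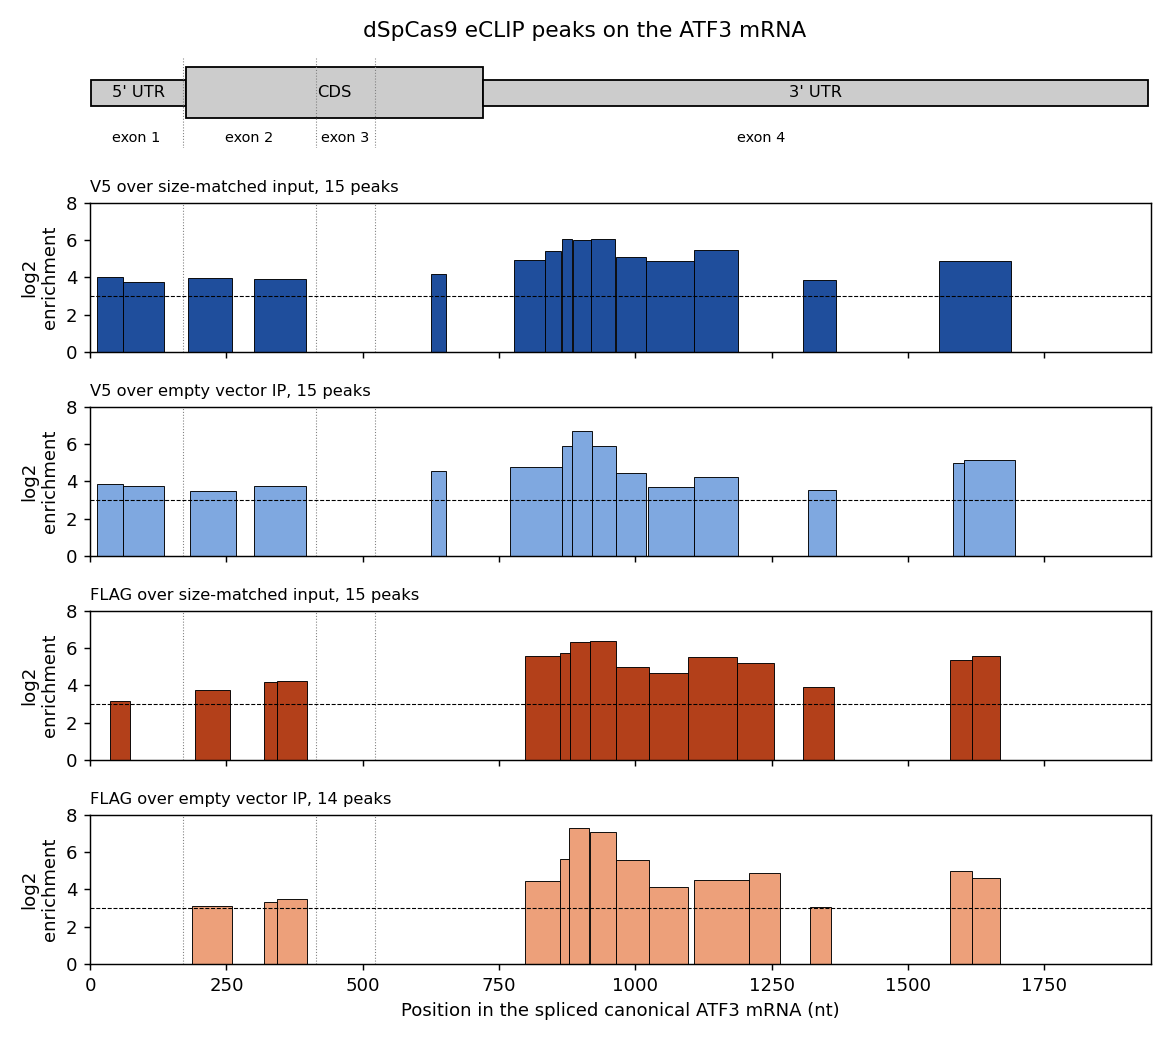
All 59 ATF3 peaks in the 4 lists, plotted along the spliced canonical mRNA (x axis, nt) at their log2 enrichment (y axis), with the width of each bar being the peak's length, the dashed line the lowest value in any list (3.0) and dotted lines the exon junctions. The tallest bars of every list stand together in the first part of the 3′ UTR, the bars of exons 1 and 2 stay at 4.21 or lower, and only V5 has a bar near the end of the CDS.

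Short stretches of the ATF3 mRNA that the following results turn on are given here 5′ to 3′ as the DNA sense strand of hg38 (T for U). The first is the 30 nt with the highest enrichment over the 4 lists, the next 3 hold the sequence and structure element that the study modelled on the guide RNA (described further on), and the last is the CDS peak found by V5 alone. Capitals mark the GT and the 5 paired bases after it in the first 4, and every GT in the last.
3′ UTR, chr1:212619720-212619749: ttctgccccagagtggGTCTTGGaccaggg
5′ UTR, chr1:212608845-212608874: gtgagtcctcgGTGCTCGcccgccggccag
CDS in exon 2, chr1:212615054-212615083: ctcggaagtgaGTGCTTCtgccatcgtccc
3′ UTR, chr1:212620480-212620509: gagcctgggtgGTACCCAggctttagcatt
CDS in exon 4, chr1:212619460-212619487: cccacGTGTattGTccgggctcagaatg

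The strongest ATF3 signal of each list lay in the first part of the 3′ UTR. The highest peak of V5 over size-matched input, chr1:212619700-212619718, reached a log2 enrichment of 6.06, which is 66.7-fold, and that of V5 over empty vector IP, chr1:212619719-212619754, reached 6.67 (102.0-fold). For FLAG the highest peaks were chr1:212619751-212619798 over size-matched input, at 6.37 (82.7-fold), and chr1:212619714-212619749 over empty vector IP, at 7.26 (153.8-fold). These 4 peaks have different borders, in part overlap and together span 145 to 243 nt after the stop codon. By the mean of the 4 lists, the summit was chr1:212619720-212619749, 165 to 194 nt after the stop codon, where the values were 5.98 and 6.67 for V5 over size-matched input and over empty vector IP, and 6.30 and 7.26 for FLAG. An enrichment of 5 or more in every list was reached by 95 nt in 3 runs of 19, 30 and 46 nt within the same stretch, and nowhere else on the mRNA.

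The summit belongs to the longest bound region, chr1:212619605-212620099, which spans 495 nt of the 3′ UTR from 50 to 544 nt after the stop codon. V5 over size-matched input had 8 adjoining peaks there, which from 5′ to 3′ stood at 4.95, 5.39, 6.06, 5.98, 6.03, 5.09, 4.86 and 5.47. The 7 peaks of V5 over empty vector IP were at 4.75, 5.91, 6.67, 5.90, 4.47, 3.71 and 4.25. Both rose to the stretch of the summit and fell 3′ of it, and both were higher again in their last peak, which had the same borders in the 2 lists (chr1:212619943-212620023).

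FLAG over size-matched input gave 8 peaks in the same region, at 5.57, 5.75, 6.30, 6.37, 5.01, 4.69, 5.50 and 5.21. FLAG over empty vector IP also gave 8, at 4.43, 5.64, 7.26, 7.06, 5.55, 4.12, 4.51 and 4.87. The shape was that of V5, with a dip at 305 to 376 nt after the stop codon in both lists. FLAG went on further 3′ than V5: its last peaks, chr1:212620021-212620088 over size-matched input (5.21) and chr1:212620044-212620099 over empty vector IP (4.87), covered nucleotides beyond the last V5 peak. At the 5′ edge it was V5 that reached further, starting at 212619612 and 212619605 against 212619632 in both FLAG lists.

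After a gap of 42 nt came a weaker region of 62 nt, chr1:212620142-212620203, with 1 peak in each list. V5 stood at 3.89 over size-matched input and 3.52 over empty vector IP, and FLAG at 3.91 and 3.05. The last of these was among the lowest values of its list, of which 4.38% of peaks were lower.

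The 3′-most region, chr1:212620392-212620530, lay 837 to 975 nt after the stop codon, 188 nt beyond the weak region. V5 over size-matched input covered it with 1 peak of 132 nt at 4.86, and V5 over empty vector IP with 2 peaks at 4.99 and 5.13. FLAG had 2 peaks in each list, at 5.34 and 5.58 over size-matched input and at 4.97 and 4.61 over empty vector IP. It was the second strongest region of ATF3 in each list by its highest peak, and all 4 lists left the 245 nt from there to the end of the transcript without a peak.

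**Figure D2:**
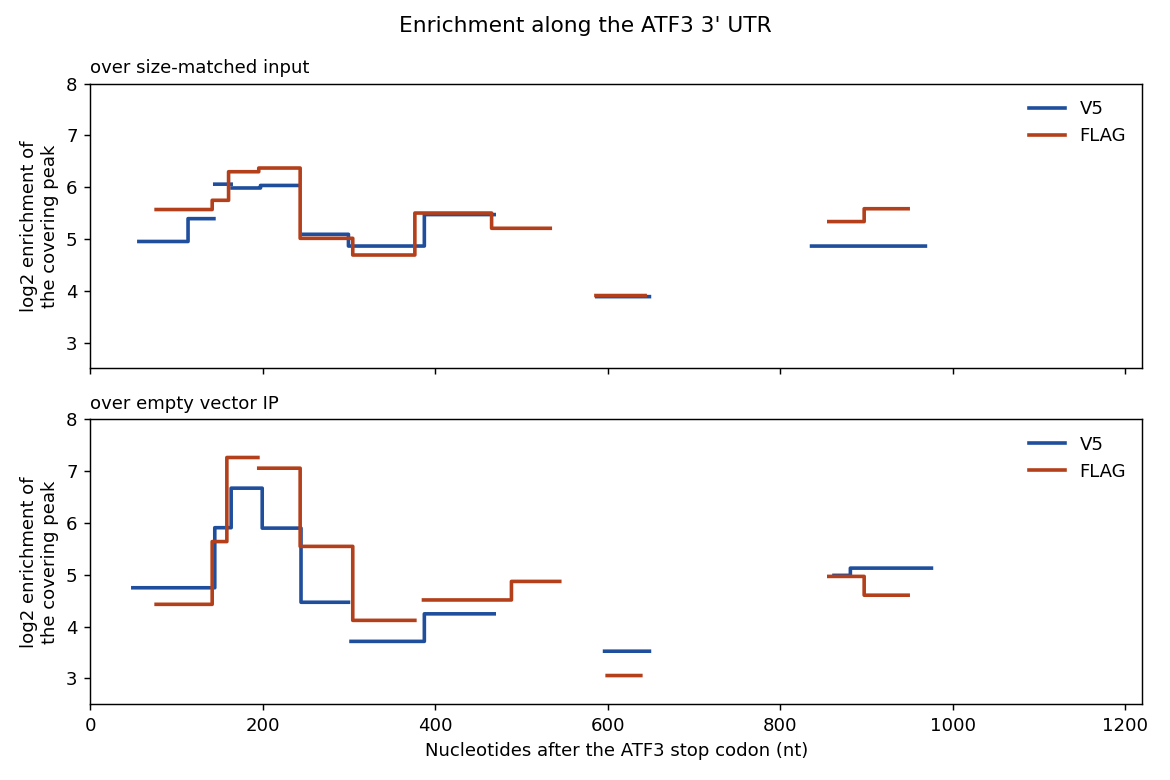
Log2 enrichment of the covering peak at each nucleotide of the ATF3 3′ UTR (y axis) against distance after the stop codon in nt (x axis), over size-matched input (top) and over empty vector IP (bottom), with V5 in blue and FLAG in red and gaps where a list has no peak. Both antibodies are highest between 145 and 243 nt in both panels, and over empty vector IP the FLAG line stands above V5 in the 5 shared intervals from 165 to 465 nt and below it in the 2 regions that follow.

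In the coding sequence, enrichment was lower. The 5′ part of exon 2, chr1:212615027-212615113 (codons 2 to 31), held 1 peak in each list, at 3.97 and 3.51 for V5 over size-matched input and over empty vector IP and at 3.73 and 3.13 for FLAG. The 3′ part of exon 2, chr1:212615148-212615243 (codons 43 to 74), was 1 peak in the V5 lists, at 3.93 and 3.76. FLAG split it into 2 peaks with the same borders in both lists, chr1:212615166-212615189 and chr1:212615190-212615243, at 4.19 and 4.21 over size-matched input and at 3.33 and 3.48 over empty vector IP. The 2 stretches of exon 2 were 34 nt apart, and exon 3 after them was bare in all lists.

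The third coding region was the 28 nt peak near the end of the CDS whose sequence is given above, chr1:212619460-212619487 (codons 151 to 160), in exon 4. It was called with the same borders in both V5 lists, at 4.17 over size-matched input and 4.57 over empty vector IP, and in neither FLAG list. Since both V5 lists rest on the same V5 IP libraries, this is 1 observation and not 2.

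In the 5′ UTR, V5 and FLAG differed in what was called. Both V5 lists had the same 2 touching peaks in exon 1, chr1:212608773-212608820, at 4.03 and 3.85, and chr1:212608821-212608894, at 3.76 in either list. FLAG over size-matched input had 1 peak, chr1:212608796-212608832, at 3.16, with 14.1% of its list lower, and FLAG over empty vector IP had none. The 5′ UTR was thus the one part of the mRNA with 0 nt under a peak in all 4 lists, although V5 peaks covered 70.1% of it.

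Peaks in the 3′ UTR numbered 10, 10, 11 and 11 in the order V5 over size-matched input, V5 over empty vector IP, FLAG over size-matched input and FLAG over empty vector IP. Over all peaks on canonical mRNAs, the midpoint lay in a 3′ UTR for 38.4%, 28.0%, 40.5% and 47.4% in the same order. In the CDS each list had 3 ATF3 peaks, against 52.5%, 62.8%, 51.5% and 49.0% of all peaks. Of the covered nucleotides of ATF3, 64.9%, 63.9%, 77.1% and 79.4% were 3′ UTR. By count, ATF3 peaks were thus placed in the 3′ UTR more often than the lists as a whole. The 3′ UTR makes up 1220 of the 1940 nt of this mRNA. Adjoining peaks of the long region at 50 to 544 nt after the stop codon gave 8, 7, 8 and 8 of the 3′ UTR peaks. Counted as bound regions, ATF3 had as many in the CDS as in the 3′ UTR. Relative to length, peaks covered 49.2%, 47.6%, 49.7% and 48.2% of the 3′ UTR and 37.2%, 37.7%, 26.2% and 28.0% of the CDS. Of the 5′ UTR they covered 70.1%, 70.1%, 21.3% and 0.0%, so in the V5 lists the 5′ UTR was the most covered part. The share of covered nucleotides in the 3′ UTR holds for transcripts with this 3′ UTR, ATF3-202 and ATF3-206, and not for annotated transcripts that end before or within it.

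The median of the ATF3 peaks was 4.86, 4.47, 5.21 and 4.56 in the same order of lists, while the median over all peaks was 3.61, 3.61, 3.63 and 3.59. An enrichment of 5 or more was reached by 6 of 15 ATF3 peaks in V5 over size-matched input, where 4.48% of all peaks reached it, and by 4 of 15 in V5 over empty vector IP (4.29% of all). In FLAG over size-matched input it was 9 of 15 (5.80% of all), and in FLAG over empty vector IP 4 of 14 (4.12% of all). Every one of these lay in the 3′ UTR, either in the long region around the summit or in the 3′-most region. In V5 over size-matched input and FLAG over empty vector IP all of them lay in the long region. Many adjoin, so these are not counts of separate sites. The −log10 p of a peak cannot exceed 400 in the files, and this ceiling was met by 1 ATF3 peak in V5 over size-matched input and by 4 in FLAG over size-matched input, all of them between 142 and 304 nt after the stop codon.

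The highest peak of ATF3 was ranked among the highest peaks of all genes with a peak in the list. It was number 24 of 2692 genes in V5 over size-matched input and number 4 of 1320 in V5 over empty vector IP. With FLAG it was number 18 of 2629 over size-matched input and number 3 of 994 over empty vector IP. The median gene reached 3.80, 3.71, 3.79 and 3.67 in these lists. By covered nucleotides, with a median of 116 to 134 nt per gene, ATF3 was number 6, 4, 25 and 5. By the length-weighted mean over all its peaks, in which the weaker exon 1 and exon 2 peaks count, it was number 113, 94, 66 and 40.

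**Figure D3:**
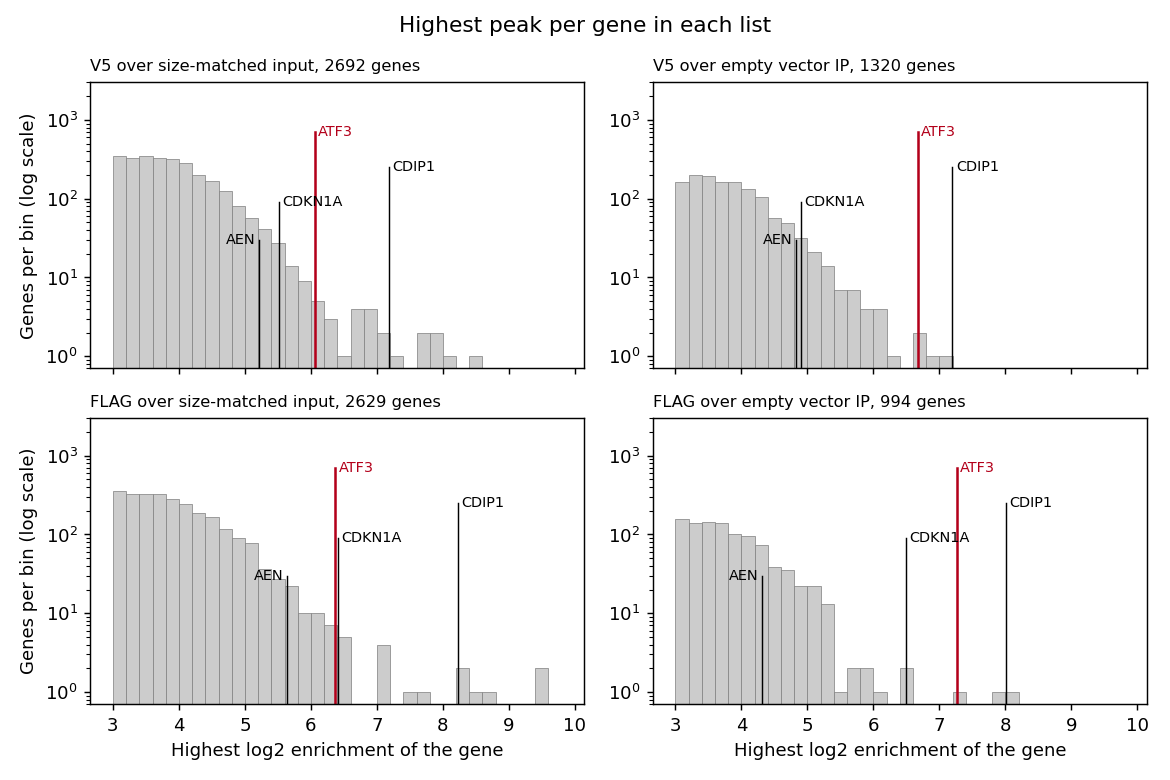
Number of genes (y axis, log scale) by the highest log2 enrichment among their peaks (x axis, bins of 0.2) in each list, with ATF3 in red and 3 other genes of the p53 response in black. ATF3 stands in the right tail of every list, at 6.06, 6.67, 6.37 and 7.26, and CDIP1 stands further right in all 4.

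The rank of ATF3 differed between the controls, in lists that also differed in their number of genes. The highest value of ATF3 over empty vector IP was above its highest value over size-matched input, by 0.61 with V5 and by 0.89 with FLAG. Over the 549 genes with peaks in all 4 lists the median of this difference was −0.35 for V5 and −0.61 for FLAG, and ATF3 came in as number 43 and number 7. The difference was above 0 in 160 of these genes for V5 and in 86 for FLAG. By quantitative RT-PCR the study reported more ATF3 mRNA with each Cas9 construct than with empty vector. The empty vector IP comes from cells without Cas9, whereas the size-matched input comes from the dSpCas9 cells. Whether the difference in ATF3 reflects mRNA abundance or binding was not tested.

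At single nucleotides the difference between controls was not of the same sign along the ATF3 mRNA. Averaged over the 883 nt under a peak in both V5 lists, enrichment over empty vector IP was below that over size-matched input, with a mean difference of −0.33, and over the 720 nt in both FLAG lists the mean difference was −0.45. In the stretch from 145 to 241 nt after the stop codon the means were 0.16 for V5 and 0.69 for FLAG. Of the 96 nt compared there, enrichment over empty vector IP was the higher at 35 nt for V5 and at 82 nt for FLAG. The difference ran from −0.15 to 0.69 for V5 and from −0.11 to 1.52 for FLAG. Outside it, V5 was higher over empty vector IP in the CDS peak of V5 alone (by 0.41) and in the 3′-most region (mean 0.24), with the second 5′ UTR peak level to the second decimal, and FLAG in the peak that follows the summit, up to 304 nt after the stop codon (5.55 against 5.01). Over every nucleotide of the exon 2 regions both antibodies were lower over empty vector IP. Scaling between libraries is not given in the sources used here, so the sign of a single difference has no fixed zero.

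All 15 ATF3 peaks of V5 over size-matched input overlapped a peak over empty vector IP by 1 nt or more, against 36.0% of all peaks of that list. For FLAG it was 14 of 15 (27.9% of all), the exception being the 5′ UTR peak. In the other direction, 15 of 15 V5 peaks over empty vector IP (76.6% of all) and 14 of 14 FLAG peaks (90.5% of all) overlapped one over size-matched input. These pairs of lists share their IP libraries, so their overlap is not an independent repeat.

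V5 and FLAG can be set against each other as separate experiments. Over size-matched input, 14 of 15 V5 peaks on ATF3 overlapped a FLAG peak (54.0% of all V5 peaks) and 15 of 15 FLAG peaks overlapped a V5 peak (55.8% of all FLAG peaks). Over empty vector IP it was 12 of 15 V5 peaks (30.6% of all) and 13 of 14 FLAG peaks (50.4% of all). Many of the ATF3 peaks adjoin, so they are not separate sites. Of the 7 bound regions, 5 held a peak in all 4 lists. The ATF3 peaks without a partner were the V5 peak near the end of the CDS in both comparisons, both V5 peaks of the 5′ UTR over empty vector IP, and the FLAG peak furthest 3′ in the long 3′ UTR region over empty vector IP.

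An intersection of the 4 lists was rebuilt here, with at least 50% of a peak covered at each step. It is not the study's own published set, which holds fewer peaks and fewer genes. The rebuilt intersection gave 749 intervals in 406 genes, with a median of 1 interval and 94 nt per gene. ATF3 held 12 intervals of 14 to 78 nt, 2 in exon 2 and 10 in the 3′ UTR, with 564 nt together. Of the other genes, 2 had more intervals, and 1 had more nucleotides. The number depended on the overlap asked for, with 23 ATF3 intervals at 1 nt and 4 at 90%. The interval of the 3′-most region was the shared part of peaks at 4.86, 5.13, 5.58 and 4.61, and that of the weak region before it of peaks at 3.89, 3.52, 3.91 and 3.05.

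Across these 12 intervals, FLAG was above V5 over size-matched input in 8, with differences from −0.31 to 0.72 and a median of 0.10. Over empty vector IP, FLAG was above V5 in 5, with differences from −0.52 to 1.16 and a median of −0.28. Those 5 intervals were consecutive, from 165 to 465 nt after the stop codon, and in the 7 others, on either side, V5 was higher. The widest gap was at 200 to 241 nt after the stop codon, with 7.06 for FLAG and 5.90 for V5 over empty vector IP, where the values over size-matched input were 6.37 and 6.03. With 1 value per list, no spread is available against which to judge these gaps.

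**Figure D4:**
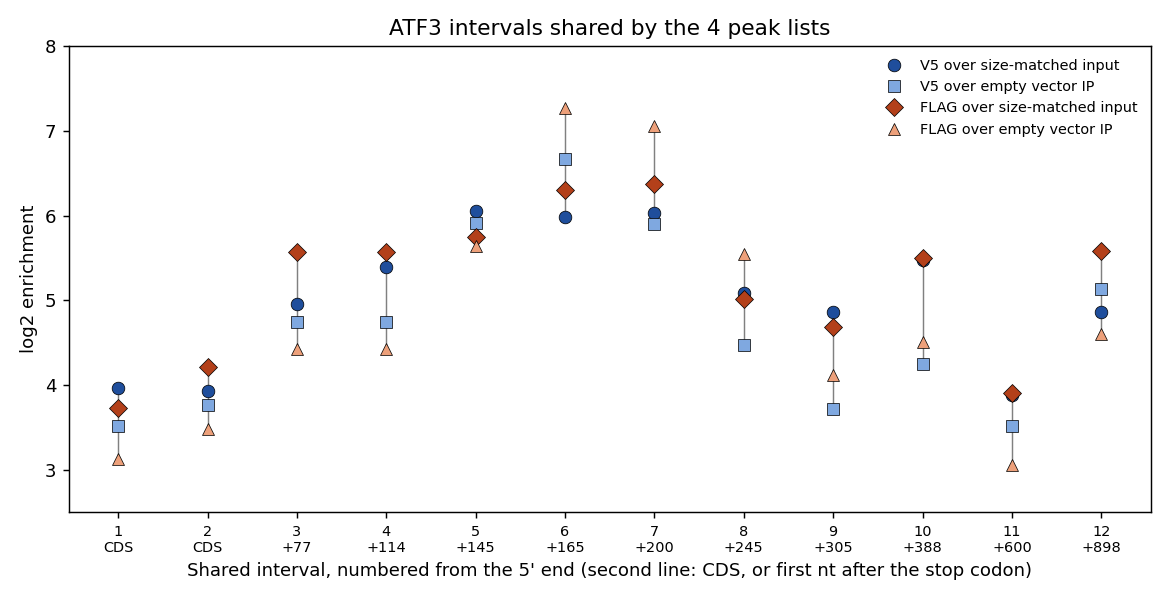
Log2 enrichment (y axis) of the 4 peaks behind each of the 12 ATF3 intervals shared by the 4 lists (x axis, from the 5′ end), 1 symbol per list, with the grey line from the lowest to the highest. Intervals 6 and 7 are highest, and the 2 CDS intervals and interval 11 are the lowest.

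The study described a sequence and structure element, the GU-loop:5nt-stem, which is a GU whose U is not firmly paired, followed by 5 bases that are mostly paired. It was called here by the study's limits, with a predicted pairing probability of the U below 0.7 and of each stem base above 0.5. It occurred in 3 of the 12 ATF3 intervals, against 36.6% of all 749, a comparison not matched for interval length. These were the first interval of exon 2, the summit and the 3′-most interval, and their 7 nt are the capitals in the sequences above. At the summit the U had a pairing probability of 0.663, near the limit, with 0.969 for the G, and with a limit of 0.5 for the U the summit no longer held the element and 2 ATF3 intervals did. In exon 2 the U was at 0.0319 and in the 3′-most interval at 0.100.

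Counted per list, 5 of 15, 5 of 15, 4 of 15 and 3 of 14 ATF3 peaks held the element. Peaks with it had a median enrichment of 3.97, 3.76, 4.75 and 4.61, and peaks without it 5.02, 4.52, 5.21 and 4.51. The median was thus lower with the element in 3 lists and slightly higher in FLAG over empty vector IP. In the long 3′ UTR region the summit was its only site. In every list most peaks without the element were adjoining peaks of that region. The medians therefore largely set that region against the rest of the mRNA and do not isolate the element. Over the peaks there were 6 different sites. Those outside the intervals were 1 in the 5′ UTR (in V5 peaks alone), 1 in the weak 3′ UTR region (3 lists) and 1 at 894 nt after the stop codon, whose 7 nt were under peaks in all 4 lists but ran across the border between 2 FLAG peaks.

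The summit region also lacked GU as such in places. The V5 peak of 19 nt just 5′ of the summit, which is the highest of V5 over size-matched input, holds no GU, and neither does the one of 30 nt before it. This depends on the peak borders, since a GU is cut by the border between them. The FLAG peaks of 19 and 17 nt at the same place each hold 1 GU. In the 95 nt with 5 or more in all lists there were 3.16 GU per 100 nt. In the 3′ UTR nucleotides under a peak in all 4 lists there were 7.23 GU per 100 nt, and in those without any peak 7.06. GU density was thus much the same inside and outside the peaks of the ATF3 3′ UTR.

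Base content differed more. G and C made up 54.6% of the 498 nt of 3′ UTR under peaks in all 4 lists and 41.6% of the 524 nt under none. The mean predicted pairing probability was 0.556 and 0.505. Still, the ATF3 3′ UTR peaks were not rich in GC for their kind: their median was 52.7% GC in V5 over size-matched input and 52.8% in FLAG, against 58.4% and 57.4% over all 3′ UTR peaks in the same range of lengths. The bound 5′ UTR region had the highest GC content of the 7, at 75.4%, and the 3′-most 3′ UTR region the lowest, at 44.6%.

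Short-lived mRNAs such as that of ATF3 often carry AU-rich elements, built around ATTTA in the DNA sequence, in the 3′ UTR. On the sense strand ATTTA occurred at 3 positions of the ATF3 3′ UTR. Those at chr1:212619777-212619781 and chr1:212619986-212619990 lay in the long bound region under peaks of all 4 lists, the first of them within the stretch of highest enrichment, and the third, at chr1:212620716-212620720, was under none. ATTTA was in 2 of 10 ATF3 3′ UTR peaks of V5 over size-matched input and 2 of 11 of FLAG. Of all 3′ UTR peaks of that range of lengths, 1.80% and 1.57% held it. The same 2 sites were counted in both lists, and the comparison was not matched for GC content. The polyadenylation hexamer AATAAA occurred 1 time, at chr1:212620747-212620752, 23 nt before the end of the transcript and 216 nt past the last bound region. A match to these letters is a description of the sequence and not of a factor bound there.

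ATF3 shares its stress response with other genes, and 3 lists of them were looked up for peaks. Expression is not in these files, so a gene without a peak may not have been expressed. Of 32 genes of the p53 pathway, 22, 18, 21 and 19 had a peak in the 4 lists, against 13.1%, 6.52%, 12.8% and 4.86% of the 20046 annotated protein-coding genes. A peak in all 4 lists was held by 15 genes with ATF3 and 14 without it, against 2.71%. The median highest enrichment of the p53 genes with a peak was 4.43, 4.51, 4.62 and 4.17. The list includes ATF3 itself and also CDIP1, CDKN1A and AEN, which were known from earlier results of these data. The counts were thus in part fixed by the choice of genes.

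Among the p53 genes only CDIP1 and CCNG1 had a higher peak than ATF3 in V5 over size-matched input, only CDIP1 and CDKN1A did in FLAG over size-matched input, and only CDIP1 did in the lists over empty vector IP. CDIP1, which promotes p53-dependent cell death, reached 7.18, 7.20, 8.23 and 8.01 on 152 to 159 nt of mRNA, so ATF3 was lower at its summit than CDIP1 and covered over more of its length. CCNG1 (cyclin G1) reached 6.93, 5.25, 4.71 and 4.26. CDKN1A, the p21 inhibitor of cell cycle kinases, reached 5.52, 4.90, 6.40 and 6.49, and AEN, an apoptosis-enhancing nuclease, reached 5.21, 4.83, 5.64 and 4.31 but covered more nucleotides than any other gene in each list. The further members with a peak in all 4 lists among the first 10 were GDF15, PMAIP1, MDM2, PPM1D and SESN2, whose highest values in V5 over size-matched input ran from 4.55 for SESN2, a sestrin, to 5.80 for GDF15, a secreted stress cytokine.

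In the integrated stress response, where phosphorylation of eIF2α favours translation of ATF4 and thereby the transcription of ATF3, 16, 17, 12 and 7 of 41 genes had a peak, against the same 13.1%, 6.52%, 12.8% and 4.86% of protein-coding genes. A peak in all 4 lists was held by 7 genes with ATF3 and 6 without it, against 2.71%. Besides ATF3 these were GDF15, TRIB3, HERPUD1, SESN2, SLC7A5 and CEBPG. All 6 were below ATF3 in every list. TRIB3, a pseudokinase induced by ATF4, reached 5.45, 5.65, 5.72 and 3.87. CEBPG, a bZIP partner of ATF4, was lowest, at 4.02, 3.21, 3.67 and 3.03.

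Among 35 bZIP partners and relatives of ATF3, 11, 6, 8 and 3 genes had a peak, with the same shares of protein-coding genes as background. ATF3 and CEBPG were the 2 with a peak in all 4 lists, which leaves 1 of 35 besides ATF3, against 2.71% of protein-coding genes. JUN, a partner of ATF3 in dimers, had peaks in V5 over size-matched input alone, at up to 4.63. ATF4, which acts upstream of ATF3, was at up to 3.41 in V5 over empty vector IP and 3.36 in FLAG over size-matched input and had no peak in the others. Both are named here after their values were seen. No other gene of the family reached 5 in any list.

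The 5 genes whose 4 highest enrichments lay nearest to those of ATF3, by Euclidean distance on the log2 scale over the 549 genes with peaks in all lists, were POLG (distance 1.33), H2AC11 (1.65), CDKN1A (2.01), ZNF672 (2.24) and CDIP1 (2.36). POLG, the catalytic subunit of the mitochondrial DNA polymerase, had 5.58, 5.72, 6.51 and 6.48. H2AC11 is a histone H2A gene with near-identical copies, so reads may be shared among them. By the mean of the 4 values ATF3 was the third gene, after CDIP1 and H2AC11.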

How the data were processed

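Per the labels and the study's methods, the authors made the 4 lists with their eCLIP pipeline and irreproducible discovery rate filtering of both replicates, on GRCh38. UMI-tools 1.0.0, cutadapt 1.14, STAR 2.4.0i and SAMtools 1.6 are named in the submitters' processing notes. Each deposited list gives peak borders, a log2 enrichment and a −log10 p capped by the authors at 400. No counts or per-replicate values were used, so depth, intervals and tests are not given.

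Peaks were assigned by strand to exons of GENCODE 44 genes, protein-coding genes first. Peaks counted as overlapping when they shared 1 nt or more, except in the 4-list intersection (50%). Pairing was predicted with ViennaRNA 2.7.2 (RNAplfold, window 70, flanks of 50 nt). Scripts ran in Python 3.11.15 and were tested on simulated data.

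Genes named are ATF3, CDIP1, CDKN1A, AEN, up to 10 members per gene list with peaks in all 4 lists (by V5 over size-matched input) and the 5 genes nearest to ATF3. JUN, ATF4, ZMAT3 and SESN1 are outside this rule and were named after their values were seen. ATF3 and the lists were chosen with earlier results of these data known.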

Additional observations from a re-analysis of the deposited data

How the results depend on the processing

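No paired analysis was possible because each list holds 1 value per peak for both replicates, and for the same reason no replicate could be left out. Of 109 alternatives, 49 stayed within 1.5 times of the reported value (0.58 on the log2 scale) and 60 did not; none has a test. Values follow the order V5 over size-matched input, V5 over empty vector IP, FLAG over size-matched input and FLAG over empty vector IP unless stated. With peaks of log2 5 or more, ATF3 had 6, 4, 9 and 4 peaks on 262, 194, 477 and 162 nt. With log2 4 or more, it had 9 peaks in V5 over empty vector IP, covered 615 and 472 nt in the V5 lists, and shared 335 nt among the 4 lists. Merging touching peaks left 8, 6 and 7 peaks in the last 3 lists, and 4 shared intervals with 267 nt, where fewer and longer peaks enter the intersection. An overlap of 1 nt gave 23 shared intervals, and one of 90% gave 4 with 155 nt. The length-weighted mean of ATF3 was 4.68, 4.37, 4.96 and 4.61 in place of the highest peak, and ranked it 113, 94, 66 and 40 among genes. By covered nucleotides it ranked 6 in V5 over size-matched input and 5 in FLAG over empty vector IP. The share of covered nucleotides in the 3′ UTR depended on the transcript: in ATF3-201, ATF3-203 and ATF3-205, which end before or near the start of the bound 3′ UTR, it was 0.0% except for 0.77% in V5 over empty vector IP with ATF3-205. In ATF3-204 it was 3.03% and 3.08% with V5 and 0.0% with FLAG, and in ATF3-210, whose annotated end is short, 14.4%, 15.6%, 14.6% and 15.5%. With the U under 0.5, 2 shared intervals held the GU-loop:5nt-stem, without the summit. With stem pairing above 0.7, the element was in 1 shared interval and in 1, 2, 1 and 1 peaks. With log2 4 or more, genes with a peak in all 4 lists fell to 1 (bZIP), 3 (integrated stress response) and 9 (p53), ATF3 included. The share of protein-coding genes was then 0.663%. With 2 peaks or more they fell to 1 and 4 in the first 2 gene lists, ATF3 included, against 1.09% of protein-coding genes.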

Other observations

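Enrichment values recurred within the lists. The 6605 peaks of V5 over size-matched input took 3778 different log2 values and the 1964 of FLAG over empty vector IP took 1545, so that 55.0% and 33.5% of their peaks had a value that at least 1 other peak of the list also had. On ATF3 this was so for 2 of 15, 3 of 15, 2 of 15 and 5 of 14 peaks in the order of lists used above. In V5 over empty vector IP the second 5′ UTR peak and the second exon 2 peak of ATF3 both stood at 3.76, with −log10 p of 10.3 and 9.19. In FLAG over empty vector IP the weak 3′ UTR peak of ATF3 had the value of the highest ZMAT3 peak, 3.05, and the peak furthest 3′ that of the highest SESN1 peak, 4.61. ZMAT3 and SESN1 were named after their values were seen. The read counts behind these values are not in the lists, and what makes values recur was not tested.

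Folded as the whole spliced mRNA rather than in windows around peaks, ATF3 had 11 calls of the GU-loop:5nt-stem, 9 of them in the 3′ UTR. Of the latter, 3 lay under peaks in all 4 lists (498 nt) and 4 where no list had a peak (524 nt). The others belonged to neither group, among them the site at 597 nt after the stop codon, whose 7 nt were under peaks of 3 lists.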
